A study of Mus musculus with 9 samples.

Results

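The genes described are 9 components of cytotoxic granules, chosen by name from the 55487 genes of the expression table: the granzymes *Gzma*, *Gzmb*, *Gzmc*, *Gzmk* and *Gzmm*, the pore former *Prf1*, and the granule genes *Srgn*, *Nkg7* and *Ctsw*. They were measured by RNA-seq in CD4+ T cells taken by negative selection from spleens of wild type C57BL/6 mice. One group of 3 libraries came from cells held in RPMI-1640 medium with FCS and antibiotics alone, a second from cells stimulated for 24 h with 2 Abs, anti-CD3 at 3 µg/ml, which binds the TCR complex, plus anti-CD28 at 2 µg/ml, which binds a costimulatory receptor. The third came from cells given the same Abs and TRAIL (10 µg/ml), a ligand of the TNF family whose receptor can act as a death receptor. The comparisons ask which transcripts the Abs changed and which of these changes differed when TRAIL was present. Neither the labels nor the study's methods say how long the medium group was cultured or whether the 3 libraries of a group came from separate mice, so p-values measure the spread between these libraries only.

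Cytotoxic granules are secretory lysosomes that a killer cell empties onto its target. Perforin makes pores in the target membrane, and granzymes, a family of serine proteases, enter through them and cut proteins that lead the target to die. Granzyme transcripts are best known from CD8 T cells and NK cells, while activated CD4+ T cells can also make them, granzyme B in particular. Bulk libraries measure all cells in the tube together. Fewer cells of one type, less RNA per cell and a larger share of RNA from other cells therefore cannot be told apart.

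*Gzmb* and *Gzmc* lie in a cluster of granzyme genes on the minus strand of chromosome 14, with *Gzmb* at chr14:56258838-56262260 and *Gzmc* at chr14:56231441-56234656 (GRCm38), 24.18 kb apart. *Gzma* (chr13:113093825-113100981) and *Gzmk* (chr13:113171608-113225908) form a pair 70.63 kb apart on the minus strand of chromosome 13. *Prf1* (chr10:61297833-61304680, plus strand), *Srgn* (chr10:62493833-62527451, minus strand) and *Gzmm* (chr10:79689020-79695261, plus strand) are on chromosome 10, *Nkg7* (chr7:43437073-43438249, plus strand) on chromosome 7 and *Ctsw* (chr19:5465043-5468507, minus strand) on chromosome 19. All 9 are protein-coding genes. *Gzmk* overlaps *Esm1* and *Ctsw* overlaps *Fibp* on the other strand, and since no source gives the strand setting of the counting, reads of such partners cannot be told apart.

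The stretches upstream of 5 granzyme genes are shown because neighbours in the same cluster had very different transcript levels. Each is the 250 bases before the RefSeq start site on GRCm38, all on the minus strand: chr14:56262335-56262584 for *Gzmb*, chr14:56234658-56234907 for *Gzmc*, chr14:56211408-56211657 for the neighbouring *Gzmf*, chr13:113100982-113101231 for *Gzma* and chr13:113180966-113181215 for *Gzmk*, whose RefSeq start is inside the locus of the table. Capitals mark matches to 4 motifs, searched on both strands: AP-1 (TGANTCA), RUNX (TGTGGT), STAT (TTCNNNGAA) and T-box (GGTGTGA).
Gzmb: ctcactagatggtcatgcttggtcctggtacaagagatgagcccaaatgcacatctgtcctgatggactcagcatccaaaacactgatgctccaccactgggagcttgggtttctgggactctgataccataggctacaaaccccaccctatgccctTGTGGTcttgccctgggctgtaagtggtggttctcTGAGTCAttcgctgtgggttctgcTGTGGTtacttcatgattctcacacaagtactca
Gzmc: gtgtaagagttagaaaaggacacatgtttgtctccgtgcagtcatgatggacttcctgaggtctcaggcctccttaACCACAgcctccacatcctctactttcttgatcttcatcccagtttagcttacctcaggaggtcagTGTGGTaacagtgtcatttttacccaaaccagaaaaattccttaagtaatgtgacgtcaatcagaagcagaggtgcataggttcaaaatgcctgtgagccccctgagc
Gzmf: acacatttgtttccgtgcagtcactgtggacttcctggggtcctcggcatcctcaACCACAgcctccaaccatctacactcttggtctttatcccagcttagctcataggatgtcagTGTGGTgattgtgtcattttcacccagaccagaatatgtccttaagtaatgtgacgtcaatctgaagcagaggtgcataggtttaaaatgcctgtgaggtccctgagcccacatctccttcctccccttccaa
Gzma: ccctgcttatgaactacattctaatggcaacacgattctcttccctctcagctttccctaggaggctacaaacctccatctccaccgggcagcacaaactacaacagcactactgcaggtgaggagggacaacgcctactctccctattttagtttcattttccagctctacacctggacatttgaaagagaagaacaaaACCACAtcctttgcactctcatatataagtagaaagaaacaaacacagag
Gzmk: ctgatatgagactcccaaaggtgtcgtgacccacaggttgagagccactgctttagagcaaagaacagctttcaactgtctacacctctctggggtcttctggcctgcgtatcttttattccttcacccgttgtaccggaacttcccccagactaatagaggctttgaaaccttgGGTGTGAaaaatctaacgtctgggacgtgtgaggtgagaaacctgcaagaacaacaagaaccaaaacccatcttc
Counting back from the start site, *Gzmb* held an AP-1 match 58 bases upstream and RUNX matches 93 and 34 bases upstream. AP-1 matches were present in 6.75% of 32851 windows of this length over all genes in the RefSeq table, RUNX matches in 14%, STAT matches in 7.02% and T-box matches in 3.33%. *Gzmc* held RUNX matches 174 and 108 bases upstream and *Gzmf* held them 195 and 133 bases upstream. *Gzma* held a RUNX match 50 bases upstream and *Gzmk* a T-box match 75 bases upstream. After alignment, 76.4% of the *Gzmc* window was identical to that of *Gzmf*, compared with 44.4% for *Gzmb* against *Gzmc*, 36.4% for *Gzma* against *Gzmk* and 38.8% for *Gzmb* against *Gzma* in the other cluster. RefSeq windows were found for 8 of the 9 genes, not for *Ctsw*. Of the members not printed, *Prf1*, *Gzmm*, *Nkg7* and the second window of *Srgn* held a RUNX match, *Gzmm* and *Nkg7* a STAT match, and *Nkg7* and the second window of *Gzmm* a T-box match. No match overlapped that of another motif.

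Values are TPM, a measure of transcript abundance in which reads are divided by transcript length and each library is scaled to the same total. TPM keeps no read totals, so depth is unknown and the precision of a value rests on 3 libraries per group. Between 13691 and 14909 genes reached 1 TPM per library, and libraries of one group correlated at 0.983 to 0.993 across genes, although genes do not count as independent replicates. The test was limma, fitted to log2(TPM + 1) of 15536 genes. Calls needed a p below 0.05 after Benjamini-Hochberg adjustment and a log2 fold change of 1 or more in either direction. All fold changes below in log2 units are on the log2(TPM + 1) scale, which understates those of genes near 1 TPM such as *Gzmc*, *Gzmk* and *Gzmm*. All 9 members passed the filter of 1 TPM in 3 libraries.

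With the Abs alone, *Gzmb*, *Srgn* and *Gzmc* rose, whereas *Gzmk* and *Ctsw* fell. When TRAIL was present, *Gzmb* lay within the range of its medium libraries, *Gzma* was below that level and *Prf1* and *Srgn* were lower than with the Abs alone. In total 5 of 9 members were called in stimulated against medium cells, 3 higher and 2 lower, where 31.9% of all tested genes were called, 12.4% higher and 19.5% lower. Against stimulated cells, 5 members were called in TRAIL-treated cells, 1 higher and 4 lower, where 30.9% of all genes were called, 16.6% higher and 14.3% lower. Against medium, 3 members were called in TRAIL-treated cells, 1 higher and 2 lower, where 4.62% of all genes were called, 2.49% higher and 2.13% lower. The first 2 comparisons share the stimulated libraries, so their directions are not independent of each other.

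The libraries of the groups compared did not overlap for any of the 9 members in stimulated against medium cells, as for 72.6% of all genes. They also did not overlap for any member in TRAIL-treated against stimulated cells, as for 70.4% of all genes, and they overlapped for *Gzmb* and *Gzmk* in TRAIL-treated against medium cells, where 50.6% of all genes showed no overlap. The members' median log2 fold change was 0.44 in stimulated against medium cells, -0.77 in TRAIL-treated against stimulated cells and -0.47 in TRAIL-treated against medium cells, beside -0.15, 0.01 and -0.18 over all tested genes. Median-of-ratios scaling moved these medians of all genes to 0.015, -0.0049 and -0.032, and quantile normalization to 0.04, -0.05 and -0.043. Under either scaling, every member kept its direction in all 3 comparisons. Of all genes called in stimulated against medium cells, 38.8% were higher, and this share was 48.9% and 52.1% under the 2 scalings. In TRAIL-treated against medium cells it was 53.9%, against 73.0% and 70.6%.

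**Figure D1:**
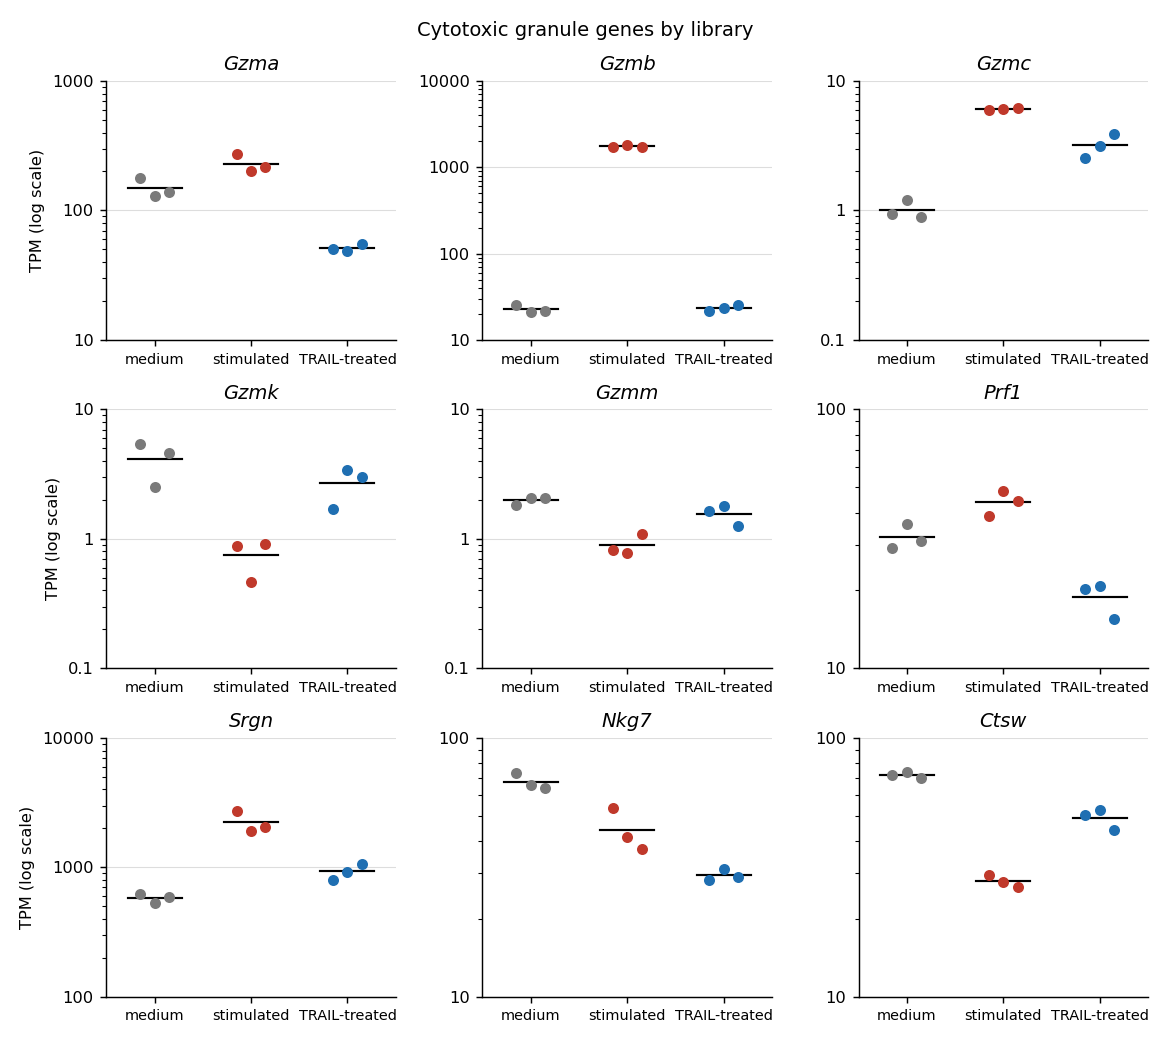
TPM of the 9 genes in each library on log axes that differ between panels, with a point for each library and a line at the mean of the 3 libraries of a group. *Gzmb* was at 1727 to 1834 TPM in stimulated libraries and at 21.15 to 25.7 TPM in all others, while *Gzmk*, *Gzmm* and *Ctsw* were lowest in stimulated libraries.

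Granzyme B, which cuts proteins after aspartate and activates caspases, had the largest change of the family. *Gzmb* was at 25.7, 21.15 and 21.61 TPM in medium, at 1738, 1834 and 1727 TPM in stimulated cells and at 21.87, 23.27 and 25.07 TPM in TRAIL-treated cells. The stimulated libraries stood far above the others, and the TRAIL-treated libraries lay within the range of the medium libraries. Mean TPM was 77.4-fold higher in stimulated than in medium cells (log2 fold change 6.22, 95% confidence interval 6.00 to 6.44, limma adjusted p = 1.16e-10). It was 75.5-fold lower in TRAIL-treated than in stimulated cells (log2 fold change -6.18, interval -6.40 to -5.96, adjusted p = 8.2e-11). Between TRAIL-treated and medium cells the log2 difference was 0.04, with an interval of -0.18 to 0.26 (adjusted p = 0.795). Among all genes, *Gzmb* ranked 61 to 83 by TPM in the stimulated libraries, 6369 to 7218 in medium and 5744 to 6729 in TRAIL-treated libraries.

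Granzyme A, a protease that cuts after basic residues and acts without caspases, was the most abundant granzyme transcript in medium. *Gzma* was at 177.6, 129.4 and 138.7 TPM in medium, at 272.8, 200.9 and 216.3 TPM in stimulated cells and at 49.99, 48.46 and 55.45 TPM in TRAIL-treated cells. All 3 groups were separate, and the order differed from that of *Gzmb*, with the TRAIL-treated libraries the lowest. The log2 difference between stimulated and medium cells was 0.63 (interval 0.30 to 0.95, adjusted p = 0.00321), short of the fold threshold. In TRAIL-treated cells *Gzma* fell 4.48-fold against stimulated cells (log2 fold change -2.13, adjusted p = 5.63e-07) and 2.90-fold against medium (interval of the log2 change -1.83 to -1.18, adjusted p = 7.52e-05).

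Granzyme C, a relative of granzyme B with chymotrypsin-like activity, was near 1 TPM in medium. *Gzmc* was at 0.935, 1.19 and 0.894 TPM in medium, at 6.00, 6.08 and 6.20 TPM in stimulated cells and at 2.55, 3.16 and 3.88 TPM in TRAIL-treated cells. The TRAIL-treated libraries lay between the other groups without overlap, unlike those of *Gzmb*. It rose in stimulated cells (log2 fold change 1.82, adjusted p = 1.19e-06) and was also higher in TRAIL-treated cells than in medium (1.05, adjusted p = 5.23e-04). The latter call was lost without TRAIL-treated replicate 3, where the log2 fold change was 0.94. With a pseudocount of 5 TPM both calls were lost, at 0.89 for stimulated and 0.45 for TRAIL-treated against medium cells. The difference between TRAIL-treated and stimulated cells, -0.77 (adjusted p = 6.57e-04), missed the fold threshold. The longest identical run shared by the longest transcripts of *Gzmb* and *Gzmc* was 49 bases, shorter than the study's reads. Whether reads of the abundant *Gzmb* were assigned to *Gzmc* was not tested. The ratio of *Gzmb* to *Gzmc* TPM was 278 to 302 in stimulated libraries, 17.7 to 27.5 in medium and 6.46 to 8.58 in TRAIL-treated libraries.

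Granzyme K, a trypsin-like protease found in memory T cells, moved in the opposite direction. *Gzmk* was at 5.37, 2.51 and 4.62 TPM in medium, at 0.882, 0.467 and 0.907 TPM in stimulated cells and at 1.69, 3.402 and 2.98 TPM in TRAIL-treated cells. The stimulated libraries were the lowest, and the other groups overlapped. *Gzmk* fell with the Abs (log2 fold change -1.53, adjusted p = 3.44e-04) and was higher with TRAIL than with the Abs alone (1.06, interval 0.50 to 1.62, adjusted p = 0.00373). The second call was lost without stimulated replicate 2 (0.93), without TRAIL-treated replicate 2 (0.91) or 3 (0.99), and after quantile normalization (0.72). With a pseudocount of 5 TPM both calls of *Gzmk* were lost, the first at -0.66 and the second at 0.41. In TRAIL-treated against medium cells its log2 difference was -0.47 (interval -1.03 to 0.09, adjusted p = 0.177).

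Granzyme M, a protease with a preference for methionine that is typical of NK cells, was low throughout. *Gzmm* was at 1.84, 2.06 and 2.08 TPM in medium, at 0.816, 0.777 and 1.09 TPM in stimulated cells and at 1.64, 1.81 and 1.26 TPM in TRAIL-treated cells. The stimulated libraries were below all others, but no difference reached the fold threshold. The log2 difference was -0.66 for stimulated against medium cells (adjusted p = 0.00122), 0.44 for TRAIL-treated against stimulated cells (adjusted p = 0.0136) and -0.23 for TRAIL-treated against medium cells (adjusted p = 0.215). With a pseudocount of 0.1 TPM in place of 1, the first of these was called, at -1.09.

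The other granzymes of the chromosome 14 cluster were at or near the lowest value of the table. *Gzme*, *Gzmg* and *Gzmn* were listed at 0.0001 TPM, the floor, in all 9 libraries. *Gzmd* and *Gzmf* were at the floor in all medium and TRAIL-treated libraries. In stimulated cells *Gzmf* was listed at 0.238, 0.279 and 0.0813 TPM and *Gzmd* at 0.0731 TPM in replicate 3 alone. None passed the filter, and a value at the floor can be a failed estimate, since 16 genes whose median was 10 TPM or more were also listed there in some library.

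As a share of the summed TPM of all 10 granzymes listed, *Gzmb* made up 12.2, 13.5 and 12.9% in medium, 86.1, 89.8 and 88.5% in stimulated cells and 28.1, 29.1 and 28.3% in TRAIL-treated cells. The means were 12.8% ± 0.684, 88.1% ± 1.87 and 28.5% ± 0.491 (SD, n = 3), with no overlap between groups. With 3 libraries a group, the smallest two-sided p of an exact permutation test is 0.1, and none was run on these shares. The *Gzmb* TPM of TRAIL-treated cells overlapped that of medium, and the larger share there stood beside a lower *Gzma* TPM. The ratio of *Gzmb* to *Gzma* ran from 0.145 to 0.163 in medium and from 6.37 to 9.13 with the Abs, compared with 0.438 to 0.48 when TRAIL was added.

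**Figure D2:**
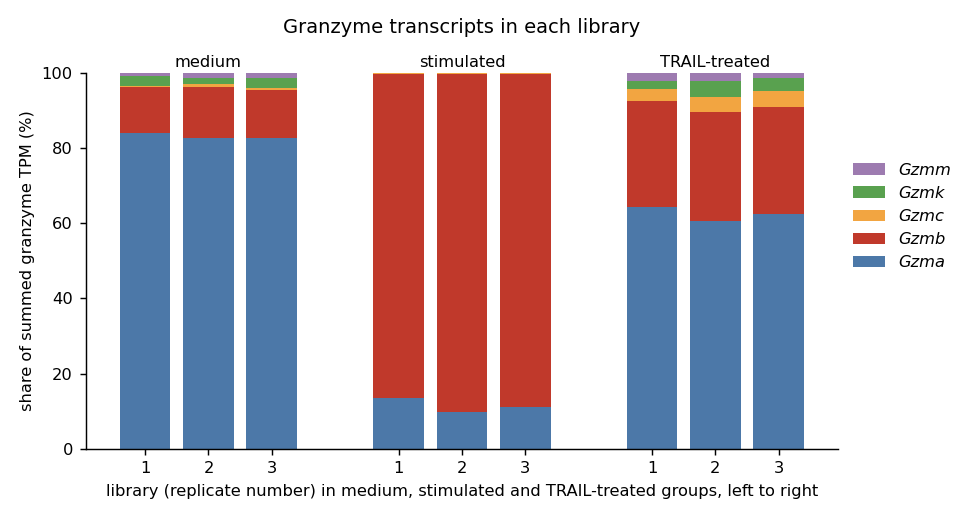
Share (%) of *Gzma*, *Gzmb*, *Gzmc*, *Gzmk* and *Gzmm* in their summed TPM, with one bar for each library. *Gzmb* took 86.1 to 89.8% in stimulated libraries, and *Gzma* was the largest part of every medium and TRAIL-treated library.

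Perforin, which forms the pores through which granzymes enter the target, changed much less than *Gzmb*. *Prf1* was at 29.06, 36.05 and 31.13 TPM in medium, at 38.92, 48.56 and 44.16 TPM in stimulated cells and at 20.28, 20.72 and 15.47 TPM in TRAIL-treated cells. The groups did not overlap, and the TRAIL-treated libraries were the lowest. With TRAIL it fell 2.33-fold against stimulated cells (log2 fold change -1.18, interval -1.5 to -0.87, adjusted p = 3.16e-05). The log2 difference was 0.44 (adjusted p = 0.0172) for stimulated against medium cells and -0.74 (adjusted p = 0.00355) for TRAIL-treated against medium cells, both short of the fold threshold. There were 0.587 to 0.885 *Gzmb* transcripts per *Prf1* transcript in medium by TPM, 37.8 to 44.7 in stimulated cells and 1.08 to 1.62 in TRAIL-treated cells.

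Serglycin, the proteoglycan core to which granzymes and perforin bind inside the granule, was the most abundant member in each library. *Srgn* was at 627.7, 531.7 and 588.8 TPM in medium, at 2728, 1916 and 2040 TPM in stimulated cells and at 797.7, 928.6 and 1068 TPM in TRAIL-treated cells. The TRAIL-treated libraries lay between the other groups without overlap. *Srgn* rose 3.82-fold with the Abs (log2 fold change 1.92, adjusted p = 1.72e-06) and fell 2.39-fold with TRAIL against the Abs alone (-1.25, adjusted p = 4.33e-05). Its log2 difference between TRAIL-treated and medium cells was 0.67 (interval 0.33 to 1.01, adjusted p = 0.00924). Serglycin is also made by myeloid cells and platelets, whose markers are given below.

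NKG7, a granule membrane protein needed for full degranulation, was highest in medium. *Nkg7* was at 73.5, 65.85 and 63.97 TPM in medium, at 53.75, 41.41 and 37.19 TPM in stimulated cells and at 28.27, 31.3 and 28.91 TPM in TRAIL-treated cells. All 3 groups were separate, with TRAIL-treated libraries lowest, as for *Gzma* and *Prf1*. It fell in TRAIL-treated against medium cells (log2 fold change -1.17, interval -1.47 to -0.88, adjusted p = 2.09e-04), while its differences of -0.62 for stimulated against medium cells (adjusted p = 0.00193) and -0.55 for TRAIL-treated against stimulated cells (adjusted p = 0.00411) were below the fold threshold.

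Cathepsin W, a papain-like protease found mainly in NK and cytotoxic T cells, had its lowest level in stimulated cells. *Ctsw* was at 71.65, 74.04 and 70.28 TPM in medium, at 29.51, 27.89 and 26.66 TPM in stimulated cells and at 50.5, 52.5 and 43.96 TPM in TRAIL-treated cells. It fell 2.57-fold with the Abs (log2 fold change -1.33, interval -1.54 to -1.12, adjusted p = 7.27e-07). In TRAIL-treated cells it lay between the other groups without overlap, 0.78 above stimulated (adjusted p = 4.01e-05) and 0.55 below medium on the log2 scale (log2 difference -0.55, adjusted p = 0.00233), neither past the fold threshold.

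**Figure D3:**
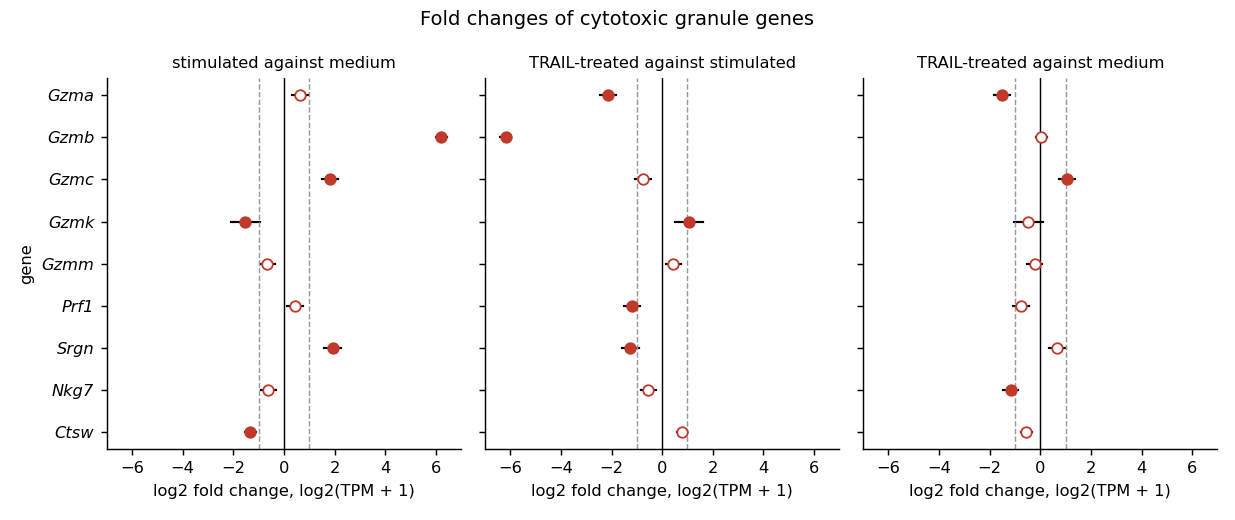
Log2 fold change on the log2(TPM + 1) scale of each gene in the 3 comparisons, with 95% confidence intervals from limma; filled points were called changed and dashed lines mark the fold threshold. *Gzmb* stood at 6.22 and -6.18 in the comparisons with stimulated cells and at 0.04 in TRAIL-treated against medium cells.

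By TPM, the order in medium was *Srgn*, *Gzma*, *Ctsw*, *Nkg7*, *Prf1*, *Gzmb*, *Gzmk*, *Gzmm* and *Gzmc*, where *Ctsw* and *Nkg7* overlapped between libraries. In stimulated cells *Gzmb* was second to *Srgn*, followed by *Gzma*, *Nkg7*, *Prf1*, *Ctsw*, *Gzmc*, *Gzmm* and *Gzmk*, with overlaps of *Nkg7* with *Prf1* and of *Gzmm* with *Gzmk*. In TRAIL-treated cells *Gzma* and *Ctsw* overlapped in second place, *Nkg7*, *Gzmb* and *Prf1* followed, and *Gzmc*, *Gzmk* and *Gzmm* came last, with *Gzmk* overlapping the genes on either side. The 9 genes summed to 933 ± 75.3 TPM in medium, 4348 ± 451 TPM in stimulated cells and 1111 ± 135 TPM in TRAIL-treated cells (SD, n = 3). *Srgn* supplied 62.4%, 50.9% and 83.7% of these sums on average.

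The spread between libraries was smallest for *Gzmc* and *Gzmb* in stimulated cells, with coefficients of variation of 1.69% and 3.34%, and for *Ctsw* in medium, with 2.64%. It was largest for *Gzmk*, with 32.9 to 35.5% in the 3 groups. The pattern of each member over the 9 libraries was also set against 10450 other genes that averaged 10 TPM or more in any group, by the root mean square difference of centred log2(TPM + 1). For *Gzmb* the nearest were *Cth* (0.164), *Gm12534* (0.216) and *Crabp2* (0.239), and the nearest member was *Srgn* at 2.20. In that order, these other genes averaged 0.155, 0.0652 and 0.237 TPM in medium and 0.126, 0.118 and 0.795 TPM with TRAIL. At such levels the log2(TPM + 1) scale understates fold changes, so their fold changes need not equal that of *Gzmb*. For *Gzma* the nearest genes were *Rad1* (0.272), *Ifi47* (0.274) and *Cpox* (0.282), and for *Prf1* they were *Champ1* (0.066), *Pced1a* (0.0675) and *Chsy1* (0.0697). The nearest genes were *mt-Tl1*, *Slc16a1* and *Gm8355* for *Gzmc*, *S100a10*, *4930522L14Rik* and *Trav14n-1* for *Gzmk*, and *Ing4*, *Psen2* and *Hgsnat* for *Gzmm*. They were *Bcl2a1b*, *Gm25432* and *Batf* for *Srgn*, *Gng2*, *Rab32* and *Ctsa* for *Ctsw*, and *Trappc1*, *Orai3* and the CD8 chain *Cd8b1* (0.183) for *Nkg7*.

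Within 100 kb of *Gzmb* and of *Gzma*, the only other gene tested was the other granzyme of the cluster, *Gzmc* and *Gzmk*, respectively. In stimulated against medium cells, where 12.4% of all genes were called higher and 19.5% lower, limma called 3 higher and 0 lower of 7 tested genes around *Gzmm*, which was itself not called. It called 4 higher and 1 lower of 18 around *Ctsw*, which fell, and 1 higher and 0 lower of 5 around *Srgn*, which rose. Around *Nkg7* 0 were called higher and 3 lower of 6, and around *Prf1* 0 higher and 2 lower of 3, both members being themselves not called.

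Genes around the granule pathway were taken from 8 lists of 92 genes, of which 85 passed the filter. In stimulated against medium cells 27 of them rose and 13 fell (47.1% called), in TRAIL-treated against stimulated cells 13 rose and 25 fell (44.7%), and in TRAIL-treated against medium cells 7 rose and 1 fell (9.41%). These shares stand beside the 31.9%, 30.9% and 4.62% of all genes, and the lists were chosen with earlier results known.

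Of 7 genes that process granzymes, 1 rose and 1 fell with the Abs, and 2 rose and 1 fell in TRAIL-treated against stimulated cells. These are 28.6% and 42.9% of the list, beside 31.9% and 30.9% of all genes called in these comparisons, and the list's median log2 fold changes were -0.87 and 0.70 beside -0.15 and 0.01. *Cst7*, which encodes cystatin F, an inhibitor of the cathepsins that activate granzymes, was at 24.9 ± 1.98 TPM in medium, 103 ± 7.12 TPM in stimulated and 21.1 ± 2.64 TPM in TRAIL-treated cells (SD, n = 3; log2 fold change -2.24 with TRAIL against the Abs alone, adjusted p = 7.01e-08). The lysosomal cathepsins *Ctsh* and *Ctsl* were higher with TRAIL than with the Abs alone, by 1.73 and 1.96 on the log2 scale. Both were lowest in stimulated cells. *Ctsl* was at 15.75 ± 0.739 TPM in medium, 7.45 ± 0.833 TPM with the Abs and 31.96 ± 4.97 TPM with TRAIL added (SD, n = 3). Its TRAIL-treated libraries were above medium without overlap (log2 difference 0.97, limma adjusted p = 5.72e-04, short of the fold threshold), and those of *Ctsh* were below medium. Markers of macrophages and monocytes, also lowest in stimulated cells, summed to 1712 to 1822 TPM in medium, 66.8 to 76.82 TPM with the Abs and 1360 to 1533 TPM with TRAIL added. The part of such cells in the cathepsin values was not tested. *Ctsc*, named after its values were seen and whose product cleaves the propeptide from granzymes, was at 154.6 to 171.2 TPM in medium and 87.84 to 91.84 TPM with the Abs, with 138 to 153.8 TPM in the TRAIL-treated group, without a call. None of the 7 was called in TRAIL-treated against medium cells, where 4.62% of all genes were called.

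Of 19 tested genes of granule biogenesis and exocytosis, 2 rose and 3 fell with the Abs (26.3% called, beside 31.9% of all genes), and 1 rose and 2 fell in TRAIL-treated against stimulated cells (15.8%, beside 30.9%). The list's median log2 fold changes in these comparisons were -0.33 and 0.02. Of those called in the second comparison, *Sytl2*, a Rab27 effector, was at 28.7 ± 3.78 TPM in medium, 2.73 ± 1.02 TPM in stimulated and 26.5 ± 3.06 TPM in TRAIL-treated cells. Markers of macrophages, monocytes, B cells and neutrophils were likewise lowest in stimulated cells, and the part of such cells in the *Sytl2* values was not tested. Its paralog *Sytl3* moved the other way, from 8.78 ± 0.153 to 24.0 ± 3.18 and 6.31 ± 0.801 TPM. *Stx11*, a syntaxin needed for granule fusion, also followed *Gzmb*, at 11.8 ± 1.11, 31.9 ± 2.42 and 11.2 ± 0.391 TPM (n = 3 each). Against medium, TRAIL-treated cells showed 0 calls among the 19, where only 4.62% of all genes were called.

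Serpins that inhibit granzymes and related proteases divided by gene. Of 7, 4 rose and 2 fell with the Abs, and 2 rose and 4 fell in TRAIL-treated against stimulated cells, 85.7% of the list in each comparison beside 31.9% and 30.9% of all genes. The median log2 fold changes were 1.31 and -1.73. *Serpinb9*, the inhibitor of granzyme B, was at 16.1 ± 1.23 TPM in medium, 90.5 ± 5.70 TPM in stimulated and 11.7 ± 1.31 TPM in TRAIL-treated cells, a log2 fold change of 2.42 with the Abs and -2.85 with TRAIL against the Abs alone (adjusted p = 2.71e-08 and 1.09e-08). *Serpina3f* gave 2.501 and -2.85. *Serpinb1a*, an inhibitor of neutrophil proteases, and *Serpinb6a* fell with the Abs (log2 fold changes -4.17 and -2.32) and were higher with TRAIL than with the Abs alone (2.695 and 2.35). Neutrophil markers were likewise lowest in stimulated cells, with sums of 839.6 to 1118 TPM in medium, 31.76 to 48.69 TPM with the Abs and 481.5 to 584.3 TPM with TRAIL added, as were those of macrophages, monocytes and B cells, and the part of these cells in these serpin values was not tested. *Serpinb1a* was the 1 member of the list called in TRAIL-treated against medium cells (14.3%, beside 4.62% of all genes), at -1.48 (adjusted p = 1.78e-05).

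Of 15 tested granzyme substrates and effectors of death, 4 rose with the Abs and the same 4, *Set*, *Lmnb1*, *Nme1* and *Apex1*, fell in TRAIL-treated against stimulated cells, with log2 fold changes of -1.805, -1.79, -1.61 and -1.51. In each comparison 26.7% of the list was called, near the 31.9% and 30.9% of all genes, and the median log2 fold changes were 0.17 and -0.79. Lamin B1 is a structural protein of the nucleus, and SET, NME1 and APEX1 belong to a complex that granzyme A attacks. None of the 15 was called in TRAIL-treated against medium cells, where 4.62% of all genes were called.

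Transcription factors known to act on cytotoxic genes gave 5 rises and 4 falls among 17 with the Abs, and 4 and 4 in TRAIL-treated against stimulated cells. These are 52.9% and 47.1% of the list, beside 31.9% and 30.9% of all genes, with median log2 fold changes of -0.80 and 0.20. *Tbx21*, which encodes T-bet, an activator of *Ifng* and cytotoxic genes, was at 13.4 ± 1.71 TPM in medium, 136 ± 12.1 TPM in stimulated and 10.9 ± 0.202 TPM in TRAIL-treated cells (log2 fold change -3.53 with TRAIL against the Abs alone, adjusted p = 3.32e-09). *Stat5a*, a transducer of the IL-2 signal, was at 52.2 ± 7.13, 239 ± 40.5 and 71.2 ± 5.67 TPM (n = 3 each). *Bcl6*, a repressor linked to follicular helper cells, and *Tcf7*, a factor of resting T cells, were higher with TRAIL than with the Abs alone, by 2.24 and 1.07. *Bcl6* was lowest in stimulated cells, as were the markers of macrophages, monocytes, B cells and neutrophils, whose part in its values was not tested. The *Tcf7* call was lost without stimulated replicate 1 (0.87) or TRAIL-treated replicate 1 (0.97). *Bhlhe40*, named after its values were seen, was the 1 gene of this list called in TRAIL-treated against medium cells (5.88%, beside 4.62% of all genes). It was at 109.6, 126.1 and 120.8 against 38.1, 48.36 and 40.55 TPM.

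Of 9 receptor chains of cytokines that act on T cell effector genes, 5 rose and 1 fell with the Abs, and 2 rose and 5 fell in TRAIL-treated against stimulated cells. These are 66.7% and 77.8% of the list, beside 31.9% and 30.9% of all genes, with median log2 fold changes of 1.58 and -2.16. *Il2ra*, the high-affinity chain of the IL-2 receptor, was at 24.0 ± 1.96 TPM in medium, 868 ± 126 TPM in stimulated and 23.2 ± 2.25 TPM in TRAIL-treated cells, a 37.5-fold lower mean with TRAIL than with the Abs alone (log2 fold change -5.16, adjusted p = 7.75e-10). The IL-12 receptor chains *Il12rb2* and *Il12rb1* and the IL-15 receptor chain *Il15ra* also fell in this comparison, with log2 fold changes of -5.601, -4.58 and -2.95. The called genes that moved the other way, named after their values were seen, were the IL-18 receptor chain *Il18r1*, which fell with the Abs (-2.59) and was higher with TRAIL than with the Abs alone (2.098), and the interferon-gamma receptor chain *Ifngr1*, higher in the second comparison (1.152). *Il18r1* was lowest in stimulated cells, as were the markers of NK cells, macrophages, monocytes, B cells and neutrophils, whose part in its values was not tested. None of the 9 was called in TRAIL-treated against medium cells, where 4.62% of all genes were called.

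Among other effector molecules were several that TRAIL-treated cells held above medium. Of 11, 6 rose and 2 fell with the Abs, 2 rose and 5 fell in TRAIL-treated against stimulated cells, and 6 rose and 0 fell in TRAIL-treated against medium cells by limma. These are 72.7%, 63.6% and 54.5% of the list, beside 31.9%, 30.9% and 4.62% of all genes, with median log2 fold changes of 1.32, -0.33 and 1.07. *Ifng* was at 9.19 ± 1.30 TPM in medium, 216 ± 31.1 TPM in stimulated and 41.3 ± 9.21 TPM in TRAIL-treated cells, so it fell by 2.37 against the Abs alone and was 2.04 above medium on the log2 scale (adjusted p = 8.33e-07 and 2.87e-05). The chemokine *Ccl4* was at 5.28 ± 0.395, 158 ± 38.7 and 47.2 ± 7.25 TPM. The inhibitory receptor gene *Lag3* and the cytokine gene *Lta* fell in TRAIL-treated against stimulated cells, with log2 fold changes of -4.83 and -1.903, and neither was called against medium. The 4 other genes above medium with TRAIL, named after their values were seen, were *Fasl*, *Tnf*, *Ccl3* and *Xcl1*. The call of *Tnf* was lost without medium replicate 1 (0.93), and that of *Xcl1* without medium replicate 3 (0.97) or TRAIL-treated replicate 3 (0.93). With a pseudocount of 5 TPM both calls were lost, at 0.94 for *Tnf* and 0.81 for *Xcl1*. *Fasl*, the ligand of another death receptor, was highest with TRAIL, at 12.8 ± 1.30, 10.5 ± 0.693 and 33.6 ± 5.53 TPM in the 3 groups (log2 fold change 1.32 against medium, adjusted p = 9.09e-05).

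Several members are also transcribed in NK and CD8 T cells, so markers of other cells in the spleen were read in the same libraries. T cell markers summed to 2780 to 2969 TPM in medium and 2609 to 2759 TPM with the Abs, with 2825 to 3068 TPM in the TRAIL-treated group, and *Cd4* was present in all libraries, at means of 383.7, 220.4 and 384.2 TPM. Of the 8 markers, *Cd2* rose (log2 fold change 1.09) and *Cd3g* fell (-1.04) with the Abs, and 0 passed the fold threshold of the limma calls in the other comparisons. The 9 NK cell markers summed to 223 to 298 TPM in medium and 40.34 to 47.78 TPM with the Abs, with 77.56 to 85.15 TPM in the TRAIL-treated group and none at the floor in any group. All 9 were called lower in stimulated and in TRAIL-treated cells than in medium, beside 19.5% and 2.13% of all genes. In TRAIL-treated against stimulated cells all 9 were higher with no overlap between libraries, where 70.4% of all genes showed no overlap, and 3 of them passed the fold threshold (33.3%, beside 30.9% of all genes). The NK markers were lowest in the stimulated libraries, where *Gzmb* was highest, and the part of NK cells in the *Gzmb* values was not tested. The order of the NK markers over the groups was that of *Gzmk*, *Gzmm* and *Ctsw*, whose medium libraries were highest and stimulated libraries lowest by mean. The part of NK cells in the changes of these 3 genes was not tested.

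The CD8 markers *Cd8a* and *Cd8b1* summed to 110 to 118 TPM in medium and 94.21 to 104.6 TPM with the Abs, with 46.9 to 49.38 TPM in the TRAIL-treated group. *Cd8a* fell in TRAIL-treated against stimulated cells (log2 fold change -1.62). Both genes fell against medium, with -1.415 for *Cd8a* and -1.098 for *Cd8b1*, whose call was lost under both scalings (-0.93 and -0.99). *Gzma*, *Prf1* and *Nkg7* were likewise lowest in TRAIL-treated libraries. The NK markers were also lower in TRAIL-treated cells than in medium, with a median log2 fold change of -1.56. The part of CD8 T cells and of NK cells in the values of these 3 genes was not tested.

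**Figure D4:**
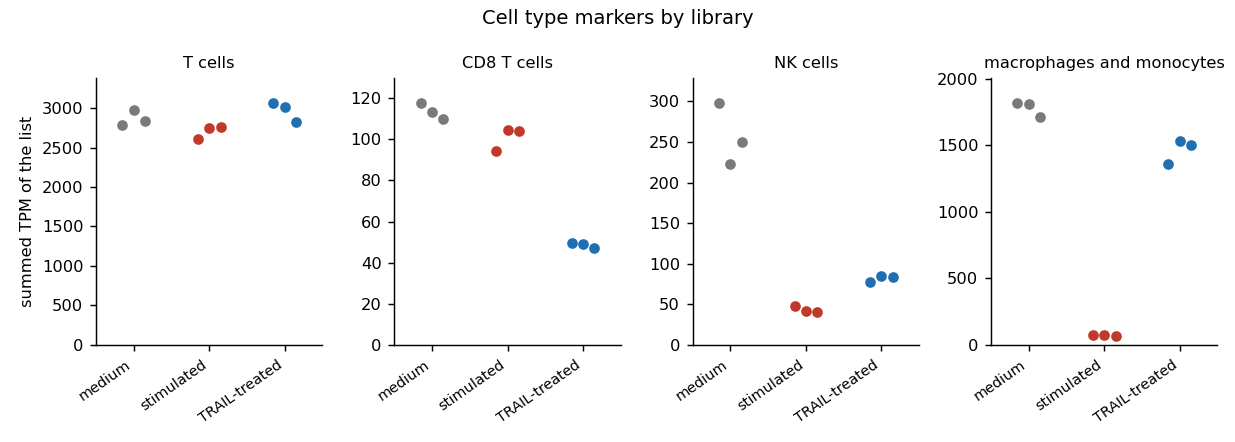
Summed TPM of marker lists for T cells, CD8 T cells, NK cells, and macrophages and monocytes, with a point for each library and an axis from 0 in each panel. CD8 markers were lowest in TRAIL-treated libraries at 46.9 to 49.38 TPM, and NK and macrophage markers were lowest in stimulated libraries.

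Markers of macrophages and monocytes summed to 1712 to 1822 TPM in medium and 66.8 to 76.82 TPM with the Abs, with 1360 to 1533 TPM in the TRAIL-treated group, with 9 of 9 called lower with the Abs and 9 of 9 called higher with TRAIL than with the Abs alone. *Srgn*, which myeloid cells express, was highest where these markers were lowest. Platelet markers, 4 of which were tested, all fell with the Abs and summed to 29.38 to 37.1, 5.288 to 6.116 and 8.631 to 9.433 TPM. Among B cell markers 8 of 8 were called lower with the Abs and 7 of 8 were called higher with TRAIL than with the Abs alone, and the remaining one was also higher without overlap. The same counts of calls were 8 of 8 and 7 of 8 for neutrophils and 6 of 6 and 6 of 6 for erythroid cells. They were 4 and 2 of 5 for basophils and mast cells, 5 and 3 of 6 for dendritic cells and 3 and 3 of 6 for plasmacytoid dendritic cells, where 2 markers were called in the other direction in each comparison. Of the 6 dendritic cell markers, 5 were higher without overlap with TRAIL than with the Abs alone and 1 was called lower. In this comparison 70.4% of all genes showed no overlap. Over all tested genes, 19.5% were called lower with the Abs and 16.6% higher with TRAIL than with the Abs alone. The neutrophil gene *Retnlg* was at the floor in all stimulated libraries. Of 8 housekeeping genes, 3 rose and 1 fell with the Abs and 1 rose and 2 fell in TRAIL-treated against stimulated cells, 50% and 37.5% of the list beside 31.9% and 30.9% of all genes. The part of these cells in the members' values was not tested.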

How the data were processed

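RNA-seq of 9 libraries in 3 groups of 3 (medium, stimulated, TRAIL-treated) was used, with groups and replicate numbers from the sample labels. The authors extracted RNA with TRIzol and made libraries with a SureSelect XT HS2 mRNA kit. Per the submitters' processing notes they used Trimmomatic 0.36, HISAT2 2.1.0, SAMtools 1.2, StringTie 2.1.2 and DESeq2. The notes name the build GRCh38 and the study's methods GRCm38; the loci of all 9 members are those of GENCODE M21 on GRCm38. For 55487 genes, TPM values were deposited by the authors. Values below 0.0001 TPM were treated as at the floor.

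In R 4.3.3, limma 3.58.1 (lmFit, eBayes with a trend) was fitted to log2(TPM + 1) in all 9 libraries together, for the 15536 genes that reached 1 TPM in 3 or more libraries. P-values were adjusted over all of them by the Benjamini-Hochberg method. The study's methods name DESeq2 on counts, which TPM values do not allow. The fit was tested on simulated data. Alternatives varied the pseudocount, filter, scaling, variance model, libraries, replicate block and fold threshold, and left out each library in turn. Their application to named genes that are no members was chosen after seeing the data. Members and gene lists were chosen with earlier results of these data known.

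Named genes were every member, for each pathway list up to 4 genes with the largest change in TRAIL-treated against stimulated cells among those called that averaged 10 TPM or more in any group, the 3 nearest genes of each member, and marker genes that moved with a member. Other genes named from the lists were chosen after their values were seen. Promoter windows came from RefSeq (GRCm38.p6) and were aligned with Biopython 1.88. Python 3.11.15 with pandas 2.3.3 gave the tables, and matplotlib 3.10.9 the plots.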

Additional observations from a re-analysis of the deposited data

How the results depend on the processing

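Of the members' fold changes under the alternatives, 522 kept their direction and side of the thresholds, 9 lost a call, 2 changed sign and 1, of *Gzmm*, gained a call. The 9 that lost a call belonged to *Gzmc* and *Gzmk*: with a pseudocount of 5 TPM *Gzmc* gave 0.89 and 0.45 and *Gzmk* -0.66 and 0.41, and the rest are given beside the genes. *Gzmb* in TRAIL-treated against medium cells ranged from -0.012 to 0.123 on leaving out single libraries, with negative values without medium replicate 2 and without TRAIL-treated replicate 3 (-0.011). The filter of 5 TPM left out *Gzmk* and *Gzmm*, so no value was had there. With a pseudocount of 5 TPM, 2946 genes and 3 members were called in stimulated against medium, 2883 genes in TRAIL-treated against stimulated and 332 genes in TRAIL-treated against medium cells, against 4959 and 5, 4800 and 718. A pseudocount of 0.1 TPM gave 1167 genes in the last comparison. Without a fold threshold 10678, 10420 and 5063 genes and 9, 9 and 6 members were called. Fewer genes passed as the pseudocount grew, which shrinks changes of low genes. Same-numbered libraries of different groups had correlated deviations of -0.306 to 0.295, 3 of 9 above 0.1, and the best match had the same number in 7 of 18 cases, so the numbers were not taken to pair samples. With a replicate block 4960, 4802 and 714 genes were called, and no member changed its call. For other named genes, 1347 values kept and 13 lost their call, for *Tcf7*, *Ncr1*, *Tnf*, *Xcl1* and *Cd8b1*. Read depth was not analysed here, since TPM does not hold it, so counting error is unknown.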
